A study of Arabidopsis thaliana with 5 samples.

Results

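The pericentromeric regions of BLUEJAY (BLJ) and JACKDAW (JKD) are the bound regions of either factor whose midpoint lies in 5 fixed intervals of the Arabidopsis thaliana genome, 1 per chromosome. On the TAIR9 build these run from 12.5 to 17.5 Mb of chromosome 1, 2.0 to 6.0 Mb of chromosome 2, 11.0 to 16.5 Mb of chromosome 3, 2.0 to 5.5 Mb of chromosome 4 and 9.5 to 14.5 Mb of chromosome 5. The midpoint was taken as the start of a region plus its summit offset. Of 24229 BLJ regions 986 were members, and of 21985 JKD regions 785 were members, 1771 of 46214 in all. The remaining 23243 BLJ and 21200 JKD regions lay on the chromosome arms. Position alone chose the members, so their density, width, sharing and gene content were not used in the choice.

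Pericentromeres are the stretches that flank a centromere. In Arabidopsis they are poor in genes, rich in transposable elements and their remains, and packed as heterochromatin that carries DNA methylation and histone H3 lysine 9 methylation. The interval of chromosome 2 is also known for a large copy of mitochondrial DNA inserted in the nuclear chromosome. BLJ and JKD belong to the INDETERMINATE DOMAIN proteins, transcription factors with zinc fingers, and are known for their part in patterning the root ground tissue, which gives rise to cortex and endodermis.

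Chromatin immunoprecipitation followed by sequencing was made from whole roots of Columbia plants with an antibody against GFP, AbCam290. There were 2 libraries from plants with BLJ fused to yellow fluorescent protein (YFP), which is present in the ground tissue, 2 from plants with JKD fused to YFP, which is present in the ground tissue and the quiescent centre, and 1 from wild-type plants with no fusion. The sources used here give neither plant age nor the promoter of each fusion. Roots were taken whole, so chromatin of cells without the fusion was in every library. For each factor 1 region list was made from both replicates together. Each region had 2 density values, named here by their order in the file because no source says which replicate each is, and 1 irreproducible discovery rate (IDR), a measure of disagreement between replicates. Density was compared only within a list. Read depth is unknown, and no wild-type regions were analysed here. How well reads could be aligned in the intervals and on the arms was not tested, and every base was counted in lengths and cover. Because each factor had 1 list, no test between conditions was possible, and all comparisons below are descriptions. Shares carry 95% Wilson intervals that cover counting error only, and neighbouring regions are not independent.

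Regions of both factors were sparse in the pericentromeric intervals. The intervals make up 19.3% of the genome but held 4.07% of BLJ regions (95% Wilson interval 3.83 to 4.33) and 3.57% of JKD regions (3.33 to 3.82). There were 42.9 BLJ regions per Mb in the intervals and 242 per Mb on the arms. For JKD these were 34.1 per Mb in the intervals and 221 per Mb on the arms. BLJ regions covered 4.19% of the intervals and 32.0% of the arms, and JKD regions 3.95% of the intervals and 27.1% of the arms. The intervals thus had 0.177 times the BLJ regions per Mb of the arms and 0.155 times the JKD regions. Every chromosome showed the same direction, with ratios from 0.149 (chromosome 2) to 0.209 (chromosome 4) for BLJ and from 0.132 (chromosome 3) to 0.182 (chromosome 1) for JKD.

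A stretch of chromosome 2 (3297860 to 3488452, 191 kb) departed from the rest of the intervals. It begins with the first base of a JKD region and ends with the last base of another, so it was delimited on the JKD list and its JKD cover is a description. JKD regions covered 95.2% of it and BLJ regions 11.8%. Without it, JKD cover of the intervals was 3.19% and BLJ cover 4.13%, while the number of regions hardly moved (765 JKD and 971 BLJ).

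**Figure D1:**
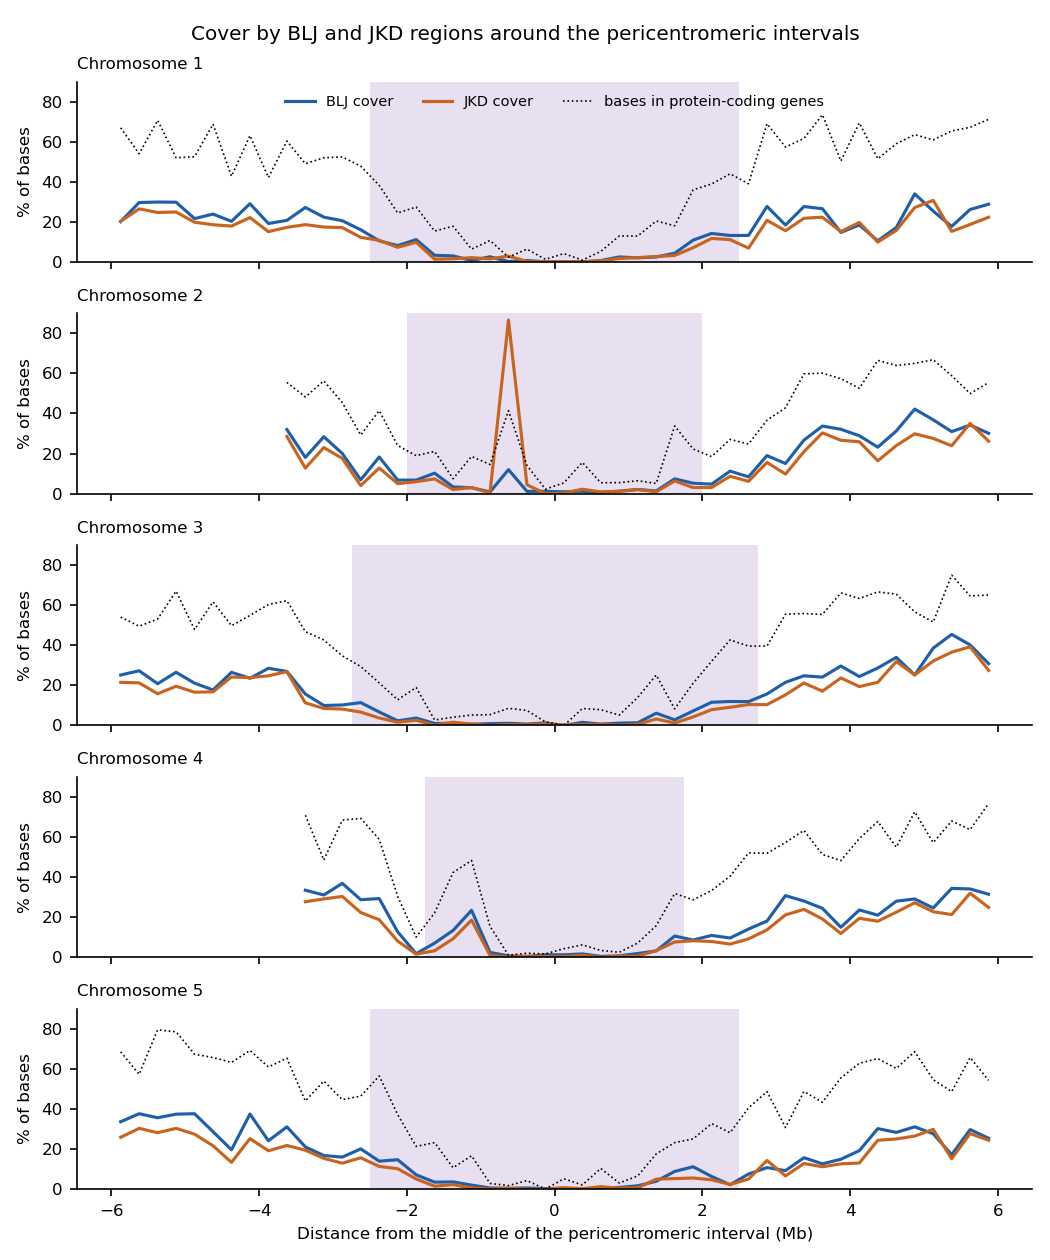
Percent of bases covered by BLJ regions (blue) and JKD regions (orange), and percent inside protein-coding genes (dotted), in windows of 250 kb by distance from the middle of each interval (shaded) in Mb. Cover is low across most of the shaded intervals on all 5 chromosomes. Exceptions are the JKD peak in chromosome 2, where the stretch had 95.2% JKD cover, and a window of chromosome 4 at -1.125 Mb with 23.4% BLJ and 18.6% JKD cover.

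The decline towards the centromere was gradual and began outside the intervals. Over all chromosomes, BLJ regions numbered 219 per Mb at 1.5 to 2.0 Mb outside the edges, 171 at 0.5 to 1.0 Mb outside, and 121 in the last 0.5 Mb before the edges. Just inside, the first 0.5 Mb held 92.6 per Mb, the next 0.5 Mb held 62.2, and the step from 1.5 to 2.0 Mb inside held 14.7. At 2.0 to 2.5 Mb inside, a depth that only chromosomes 1, 3 and 5 reach, there were 6.00 per Mb. JKD regions took the same course, with 199 per Mb at 1.5 to 2.0 Mb outside, 104 in the last 0.5 Mb outside, 77.8 in the first 0.5 Mb inside, 10.2 at 1.5 to 2.0 Mb inside, and 3.67 at 2.0 to 2.5 Mb inside on those 3 chromosomes. The edges of the intervals therefore mark no step in the data. On chromosome 4 the course differed at the left edge, since the first 0.5 Mb inside it held 55 BLJ and 33 JKD regions, and the last 0.5 Mb outside held 35 and 27.

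On every chromosome the longest stretch with no region lay inside the interval, though not always at its centre. On chromosome 1, the BLJ list had no region between 14541227 and 15541098 (1000 kb) and the JKD list none between 14541152 and 15570127 (1029 kb). The BLJ gap held 10 protein-coding genes and 90 pseudogenes. On the other chromosomes the longest empty stretch in the interval ran from 325 to 484 kb for BLJ and from 415 to 670 kb for JKD. No empty stretch on an arm was longer than 154 kb for BLJ or 162 kb for JKD, both on chromosome 4. Of 230 windows of 100 kb in the intervals, 53 held no BLJ midpoint, 62 no JKD midpoint and 38 neither. All 958 windows on the arms held midpoints of both.

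Coding content varied with the number of regions, and it differed strongly between the intervals and the arms. Protein-coding genes took up 15.6% of bases in the intervals and 63.3% on the arms. Within the intervals, Spearman's correlation across the 230 windows between coding content and region number was 0.81 for BLJ and 0.81 for JKD. Windows lie side by side and share the annotation, so this is a description. Windows in the same class of coding content were then compared. With 10 to 20% coding bases, the median was 3.0 BLJ regions in 49 pericentromeric windows and 3.5 in 6 arm windows, and 2.0 and 3.0 JKD regions. At 20 to 30%, it was 7.0 BLJ regions in 26 pericentromeric windows and 7.5 in 12 arm windows, and 5.5 and 6.5 JKD regions. These pairs lay close together, within the quartiles of the arm windows for BLJ. Below 10%, 110 pericentromeric windows had medians of 1.0 BLJ and 0.0 JKD regions. Only 2 arm windows, with medians of 2.0 and 1.0, could be set beside them.

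At higher coding content the intervals stayed below the arms. With 30 to 40% coding bases, 26 pericentromeric windows had a median of 9.5 BLJ and 7.0 JKD regions, and 34 arm windows had 16.0 BLJ and 12.0 JKD regions. With 40 to 50%, 13 pericentromeric windows had 11.0 BLJ and 9.0 JKD regions, and 77 arm windows had 18.0 BLJ and 16.0 JKD regions. The upper quartile of the pericentromeric windows at 40 to 50% was 13.0 for BLJ, below the lower quartile of 14.0 in the arm windows. For JKD these quartiles were 11.0 in the pericentromeric windows and 13.0 in the arm windows. Coding content was not equal within a class. At 30 to 40% its median was 32.8% in the intervals and 34.7% on the arms. At 40 to 50% it was 42.2% in the intervals and 46.2% on the arms. Arm windows at 30 to 40% also had higher medians than pericentromeric windows at 40 to 50%. Above 50% only 6 pericentromeric windows were left.

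**Figure D2:**
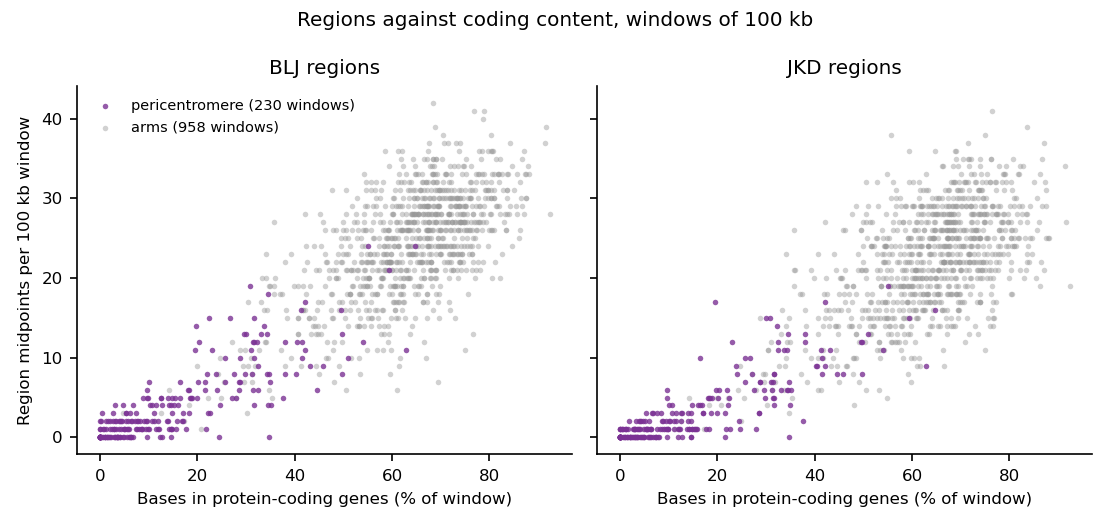
Region midpoints per window of 100 kb (y axis) against the percent of bases in protein-coding genes (x axis) for 230 pericentromeric windows (purple) and 958 arm windows (grey), BLJ left and JKD right. At 40 to 50% coding bases the purple points have medians of 11.0 (BLJ) and 9.0 (JKD) and the grey points 18.0 and 16.0.

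Single genes showed the same difference as the windows. Of 1812 protein-coding genes in the intervals, 592 (32.7%) were overlapped by a BLJ region and 581 (32.1%) by a JKD region. On the arms 73.7% and 67.6% of 25632 genes were, and over the whole genome 71.0% and 65.3%. Without the stretch, BLJ regions overlapped 33.1% of 1750 pericentromeric genes and JKD regions 29.7%. Regions of both factors overlapped 394 pericentromeric genes, BLJ regions alone 198, JKD regions alone 187, and neither 1033. With the stretch left out these counts were 382, 198, 138 and 1032, so the JKD count alone fell below the BLJ count. Chromosome 4 had the highest BLJ share among the intervals (46.3%) and chromosome 2 the lowest (22.4%). For JKD, chromosome 2 came first with 41.8%, but with 29.1% once the stretch was left out.

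Pericentromeric genes were shorter than arm genes, with medians of 1592 and 2101 bp, and a longer gene has more room for a region. The difference held in each class of length. Among genes of up to 1000 bp, 12.6% in the intervals and 46.8% on the arms were overlapped by a BLJ region. For genes over 3000 bp these were 53.8% in the intervals and 86.1% on the arms. JKD gave 16.0% in the intervals and 40.9% on the arms for the shortest genes, 11.2% in the intervals without the stretch, and 50.3% and 80.1% for the longest. Genes that carry a symbol in the gene table, as most studied genes do, were overlapped more often than genes known by locus name only. Of 438 pericentromeric genes with a symbol, BLJ regions overlapped 53.2% and JKD regions 46.6%, and of 1374 without one, 26.1% and 27.4%. The stretch held no gene with a symbol. With it left out, BLJ regions overlapped 26.4% and JKD regions 24.1% of 1312 genes without a symbol. On the arms these shares were 80.1% and 74.0% with a symbol and 69.7% and 63.6% without. The genes with a symbol were also longer, with a median of 2619 bp in the intervals against 1239 bp for the others. Of 460 pericentromeric genes with a pseudogene within 1000 bp, 23.5% had a BLJ region, and of the 1352 others 35.8%.

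Pseudogenes are the most numerous class in the intervals, and few were overlapped. Of 2930 pseudogenes there that the gene table does not class as transcribed, BLJ regions overlapped 154 (5.26%) and JKD regions 107 (3.65%). On the arms 23.2% and 18.6% of 987 were overlapped. The gene table has no separate class for transposable elements. Long non-coding RNA genes gave 13.8% and 14.7% of 354 in the intervals and 42.7% and 42.0% of 3126 on the arms, BLJ and JKD in that order. MicroRNA genes gave 1 BLJ and 2 JKD overlaps among 40 in the intervals, while on the arms 21.3% and 21.0% of 286 were overlapped. Small nucleolar RNA genes, which guide RNA modification, were overlapped by BLJ regions in 5 of 13 cases in the intervals (38.5%, 17.7 to 64.5) and in 33.9% of 274 on the arms, a share that this wide interval contains. JKD regions overlapped 6 of 13 (46.2%) in the intervals and 42.0% on the arms. Small nuclear RNA genes, of the splicing machinery, were overlapped by BLJ regions in 2 of 4 cases in the intervals and 44.9% of 78 on the arms, and by JKD regions in 3 of 4 cases in the intervals and 39.7% on the arms.

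Transfer RNA genes differed between the factors inside the intervals. BLJ regions overlapped 3 of 39 and JKD regions 23 of 39, and none was overlapped by BLJ alone. On the arms BLJ regions overlapped 59.6% and JKD regions 53.2% of 586. The stretch held 11 of the 23, and 9 more lay within the 50 kb on either side of it. Regions of up to 38672 bp spanned several of these genes at once, so the genes are not separate observations. Away from chromosome 2, JKD regions overlapped AT1G45238 and AT1G45240 with a single region on chromosome 1 (17158567 to 17159044, densities 1.01 and 1.61), and AT3G29095 lay under regions of both factors on chromosome 3.

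**Figure D3:**
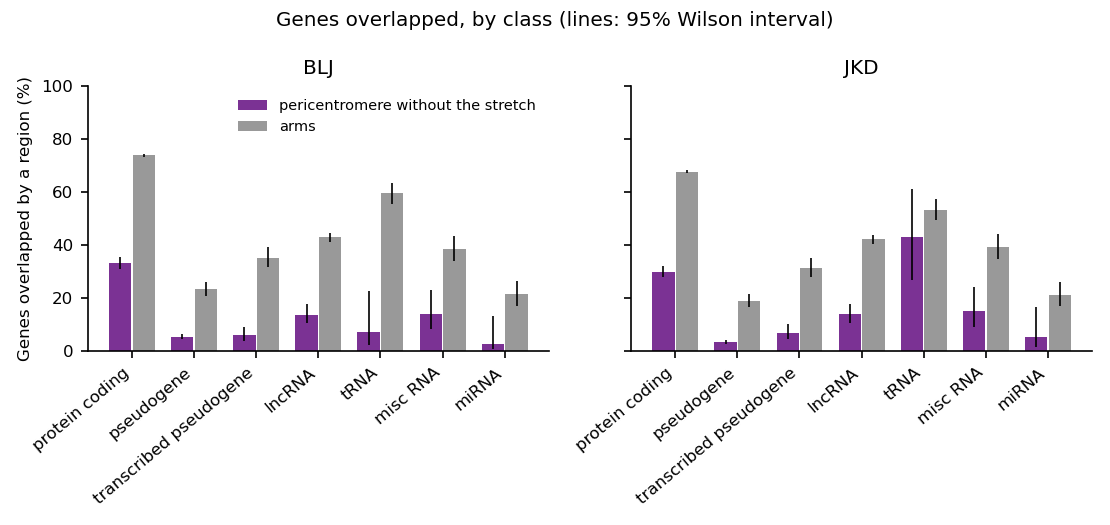
Percent of genes of each class overlapped by a BLJ region (left) or a JKD region (right) in the pericentromeric intervals without the stretch (purple) and on the arms (grey), with 95% Wilson intervals as lines. Purple bars are lower than grey bars in each class drawn, which leaves out the 13 small nucleolar and 4 small nuclear RNA genes, whose shares were higher in the intervals than on the arms, and for JKD the tRNA interval of the purple bar spans the height of the grey one.

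Where pericentromeric regions did occur, most sat on protein-coding genes. The midpoint lay inside one for 613 BLJ regions (62.2%, 59.1 to 65.1) and 498 JKD regions (63.4%, 60.0 to 66.7). On the arms it did so for 84.3% and 78.8%, and in the whole lists for 83.4% and 78.3%. Set against the bases such genes occupy, this was 3.99 times their share in the intervals and 1.33 times on the arms for BLJ. For JKD the multiples were 4.07 and 1.24. Such genes take up a far larger share of bases on the arms, which caps the multiple there. These multiples therefore do not measure a stronger preference for genes in the intervals. BLJ regions covered 17.6% of coding gene bases in the intervals and 42.3% on the arms, and 1.72% of all other bases in the intervals and 14.2% on the arms. Pseudogenes, which take up 32.4% of pericentromeric bases, held the midpoint of 16.4% of BLJ and 11.3% of JKD regions. No annotated gene lay at the midpoint for 19.1% and 21.8%. Regions were narrower than on the arms, with a median width of 804 bp in the intervals and 1028 bp on the arms for BLJ, and 730 and 915 bp for JKD. Regions of at least 2000 bp made up 6.09% of BLJ members and 17.1% of BLJ arm regions.

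Composition changed with distance from the interval edge. In the outermost 0.5 Mb, 69.8% of 463 BLJ regions and 68.1% of 389 JKD regions had their midpoint in a coding gene. At 1.5 Mb or more from the edge, outside the stretch and 50 kb beside it, this was 29.1% of 86 BLJ and 39.0% of 59 JKD regions, and 41.9% and 32.2% lay in pseudogenes. Coding genes themselves were overlapped less often there, 11.1% of 226 for BLJ and the same number, 25 genes, for JKD. In the outermost 0.5 Mb 41.5% and 37.5% of 757 genes were overlapped. These depth classes were chosen after the data had been seen. Coding bases became scarcer with depth too. On chromosome 1 they made up 38.2% of the window of 250 kb inside the left edge and 1.24% of the one left of the middle. Base shares were not worked out for the depth classes, so the change in composition does not show a move away from coding genes.

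Both factors shared fewer of their regions in the intervals. Of BLJ regions, 461 of 986 (46.8%, 43.7 to 49.9) shared 1 bp or more with a JKD region, against 69.6% on the arms and 68.7% in the whole list. Of JKD regions, 466 of 785 (59.4%, 55.9 to 62.7) overlapped a BLJ region, against 77.8% on the arms and 77.1% in the whole list. The other factor had far less cover in the intervals. JKD cover was 3.95% there and 27.1% on the arms, and BLJ cover 4.19% there and 32.0% on the arms. As a multiple of the other factor's cover, overlap was thus 11.8 in the intervals and 2.57 on the arms for BLJ. For JKD it was 14.2 in the intervals and 2.43 on the arms. Without the stretch the multiples in the intervals were 14.4 for BLJ and 14.3 for JKD. A share has a ceiling, so the higher cover on the arms caps the multiple there. These multiples therefore do not measure a stronger tendency to share in the intervals. With an overlap of at least 50% of both regions required, 33.7% of BLJ and 42.3% of JKD members were shared (332 pairs), and on the arms 45.8% and 50.2%. The difference in percentage points was smaller among regions of low IDR, where fewer regions were shared in the intervals and on the arms alike. With both lists limited to an IDR at or below 0.05, 19 of 106 pericentromeric BLJ regions (17.9%, 11.8 to 26.3) and 22.8% of 1884 arm regions overlapped a JKD region, and 19 of 170 pericentromeric JKD regions (11.2%, 7.27 to 16.8) and 11.5% of 3722 arm regions overlapped a BLJ region. Both Wilson intervals contain the arm value, and the one for BLJ is wide.

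Within the intervals, sharing was more frequent inside protein-coding genes than outside them, which for BLJ was not so on the arms. Inside protein-coding genes, 54.0% of pericentromeric BLJ regions and 69.7% of those on the arms overlapped a JKD region. Outside such genes it was 34.9% in the intervals and 69.3% on the arms. JKD regions gave 68.1% in the intervals and 81.9% on the arms inside genes, and 44.3% and 62.6% outside. In pseudogenes 27.2% of BLJ regions in the intervals and 48.1% on the arms were shared, and 40.4% and 67.8% of JKD regions. Where regions did overlap, starts differed by a median of 164 bp in the intervals and 186 bp on the arms. Spearman's correlation of their scores, the mean log2 of both density values, was 0.67 over 461 pericentromeric BLJ regions and their partners, and 0.51 over 16184 on the arms. Without the stretch it was 0.63 over 446 pericentromeric regions. First-listed values alone gave 0.31 in the intervals and 0.23 on the arms, and second-listed values alone 0.62 and 0.48.

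Density differed little at the median. Pericentromeric BLJ regions had a median first-listed density of 1.72 and arm regions 1.60, and a second-listed density of 1.38 in both. Pericentromeric JKD regions had a first-listed median of 1.09 and arm regions 1.10, and second-listed medians of 1.55 and 1.49. On the log2 scale the difference of the medians of the score, intervals minus arms, was 0.06 for BLJ and 0.03 for JKD. For each factor only 1 of the 2 values carried it. In log2 units, the BLJ difference was 0.11 with the first-listed value and 0.0033 with the second-listed. The JKD difference was -0.0050 with the first-listed value, the reverse direction, and 0.06 with the second-listed. The spread between both values (SD 0.07 for BLJ and 0.05 for JKD) was larger than the difference. Among regions with an IDR at or below 0.05 the BLJ score difference was 0.39 and the JKD difference 0.04. The higher first-listed BLJ median appeared on all 5 chromosomes, as did the higher second-listed JKD median.

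The location of a region went with this difference. Inside protein-coding genes, pericentromeric BLJ regions had medians of 1.64 and 1.36 and arm regions 1.59 and 1.37. Outside such genes the medians were 1.90 and 1.42 in the intervals and 1.66 and 1.40 on the arms. JKD regions outside coding genes had second-listed medians of 1.62 in the intervals and 1.53 on the arms. An IDR at or below 0.05 was reached by 106 BLJ members (10.8%, 8.97 to 12.8) against 8.11% on the arms and 8.21% in the whole list. For JKD it was reached by 170 members (21.7%, 18.9 to 24.7) against 17.6% on the arms and 17.7% in the whole list. Without the stretch the BLJ share was 9.78% (8.07 to 11.8), an interval that contains the arm value. With an IDR limit of 0.1, the shares of BLJ regions in the intervals and on the arms differed by 0.104 percentage points. The differences at 0.05 also moved with the edges. With intervals narrowed by 0.5 Mb at both edges the BLJ difference was 6.23 points, against 2.64 as drawn, and with intervals widened by as much the JKD difference was 1.19 points, against 4.10 as drawn.

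**Figure D4:**
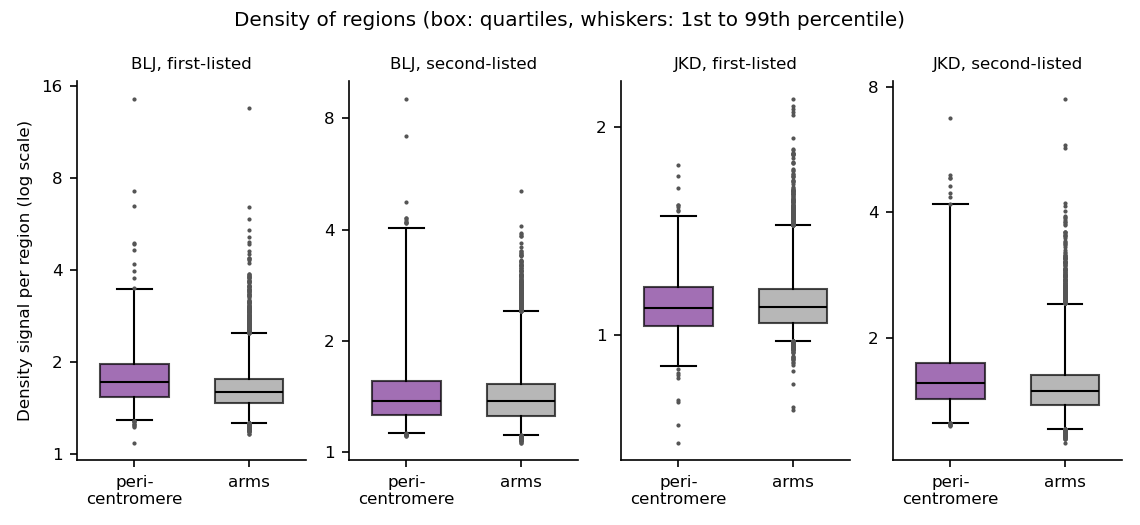
Density signal per region on a log scale for pericentromeric regions (purple) and arm regions (grey), with quartiles as boxes, the 1st to 99th percentile as whiskers and points beyond, and a separate axis for each value. Medians of the second-listed BLJ value (1.38 in both) and the first-listed JKD value (1.09 and 1.10) nearly coincide, while the upper whiskers reach higher in the intervals.

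The densest regions were more frequent in the intervals than the medians would show. Of the densest 1% of the BLJ list, ranked by score, 49 lay in the intervals, which is 4.97% of pericentromeric regions against 0.830% of arm regions. For JKD there were 32, which is 4.08% against 0.882%. The stretch held 13 of each. Without it and the 50 kb on either side, 31 BLJ regions (3.21%) and 15 JKD regions (1.99%) were left. Outside protein-coding genes, 10.2% of pericentromeric BLJ regions and 2.21% of arm regions were among the densest 1%. Inside them it was 1.79% in the intervals, 0.988% without the stretch, and 0.572% on the arms. BLJ regions with no JKD partner reached it in 20 of 525 cases in the intervals and in 15 of 7059 on the arms. This limit was chosen after the data had been seen.

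The 3 densest BLJ regions of the intervals outside the stretch lay on chromosome 3 away from coding genes and had no JKD region over them. The first (11686244 to 11686471) had densities of 14.6 and 7.19 and overlapped the pseudogene AT3G29782. Next came 13185528 to 13186025, with 7.26 and 3.61 and no annotated gene. A region over the pseudogene AT3G32970 (13519983 to 13520466) had 4.90 and 4.17. All were under 500 bp wide, with an IDR of 0.00346 or less. Beside AT4G04630 on chromosome 4 (2332918 to 2333897) the first-listed density was 6.50 and the second-listed 1.39, so that this rank rested on 1 value. Beside ALDH3H1 (AT1G44170), an aldehyde dehydrogenase gene, a BLJ region on chromosome 1 (16800668 to 16801213) had 4.19 and 1.84 and a JKD region over it 1.54 and 1.73. At AT3G32980 on chromosome 3 (13526090 to 13528115) the BLJ densities were 2.18 and 3.63 and the JKD densities 1.10 and 2.62. The other 3 of the 10 densest BLJ regions lay on chromosome 2 in the 50 kb before the stretch, over AT2G07621, the non-coding gene AT2G05155 and the tRNA gene AT2G07746. The last of the 10 lay on CAF1a.

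The densest JKD regions of the intervals outside the stretch lay nearer to genes. CAF1a (AT3G44260), a deadenylase that shortens mRNA tails, had rank 10 in the whole JKD list and rank 46 in the BLJ list. Its JKD region on chromosome 3 (15951657 to 15953516) had densities of 1.45 and 4.43, and its BLJ region (15951853 to 15953470) had 2.12 and 3.60. Over AT3G44400 lay a JKD region (16046982 to 16048116, 1.45 and 4.18) and no BLJ region over it. A JKD region on chromosome 3 (11808213 to 11809565, 1.76 and 2.68) had as its nearest coding gene BR6OX2 (AT3G30180), a cytochrome P450 of the last steps of brassinosteroid synthesis. At AT4G04925 (chromosome 4, 2505653 to 2506863) the JKD densities were 1.53 and 2.79 and the BLJ densities 2.01 and 1.96. A wide JKD region on chromosome 4 (2586386 to 2590380, 1.28 and 3.06) spanned the polyubiquitin gene UBQ11 (AT4G05050), small nucleolar RNA genes including U49.1, and neighbouring loci. Beside WVD2 (AT5G28646), which encodes a microtubule-binding protein of root growth, the JKD region (10673460 to 10674629) had 1.39 and 2.63 and the BLJ region 1.71 and 1.85. The region over the pseudogene AT2G09865 had 0.873 and 4.82 with an IDR of 0.339, so that its rank rested on the second-listed value. The remaining regions of the 10 densest were the one beside XTH31 and a pair on chromosome 2 before the stretch, over AT2G07621 and around AT2G07623.

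Regions of both factors lay within 1000 bp of 509 pericentromeric coding genes outside the stretch. Genes were ordered by the sum of their ranks by score in both lists. Of the leading 10, CAF1a came first and NIT2 last, and the 8 between them, such as AT2G07673, AT2G07617, AT2G07684, AT2G07665, AT2G07741 and AT2G07835, all lay beside the stretch on chromosome 2 and shared a few regions. When the 50 kb on either side were left out too, a choice made after these values were seen, the leading genes were CAF1a, NIT2, MSRB5, OPR3, AT1G36310 with its neighbour AT1G36320, AT3G32980, XTH31, and AT5G27410 with its neighbour CNI1. For each gene the densest region of each list within 1000 bp was taken, and its first-listed and second-listed densities form a pair. NIT2 (AT3G44300), a nitrilase that can form auxin from indole-3-acetonitrile, had a BLJ pair of 2.45 and 2.04 and a JKD pair of 1.34 and 2.49. MSRB5 (AT4G04830), a methionine sulfoxide reductase, had a BLJ pair of 2.13 and 2.26 and a JKD pair of 1.43 and 2.28. OPR3 (AT2G06050), the reductase of jasmonate synthesis, had a BLJ pair of 2.10 and 2.13 and a JKD pair of 1.31 and 2.59. XTH31 (AT3G44990), a wall enzyme acting on xyloglucan, had a BLJ pair of 1.92 and 2.16 and a JKD pair of 1.40 and 2.80. CNI1 (AT5G27420), a ubiquitin ligase of the carbon and nitrogen response, had a BLJ pair of 1.86 and 2.36 and a JKD pair of 1.39 and 2.33. Every one of these 5 genes had a percentile of at least 97.6 by score in the BLJ list and of at least 98.97 in the JKD list. All 5 lay nearer to an edge of their interval than to its middle. On chromosome 3, where the interval ends at 16.5 Mb, the BLJ regions began at 15984460 (NIT2) and 16446009 (XTH31). The intervals of chromosomes 2 and 4 begin at 2.0 Mb, and the BLJ regions began at 2358405 (OPR3) and 2447177 (MSRB5). On chromosome 5 the interval begins at 9.5 Mb and the BLJ region at 9683814 (CNI1).

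At 1.5 Mb or more from the edge and outside the stretch and its 50 kb, 24 BLJ regions overlapped a JKD region. A coding gene lay under 10 of them, a pseudogene and no coding gene under 5, and no annotated gene under 9. Of the genes under them, 4 had a symbol. These genes and the pseudogenes named with them were chosen after their values had been seen. NIA2 (AT1G37130), the main nitrate reductase, had BLJ regions on chromosome 1 at 14157932 to 14159531 (densities 1.48 and 1.47) and 14159936 to 14161709 (1.79 and 1.59), with JKD partners of 1.18 and 1.61 and of 1.16 and 1.76. At GLR3.3 (AT1G42540), a glutamate receptor-like channel, the BLJ region on chromosome 1 (15975610 to 15976617) had 2.01 and 1.57 and its JKD partner 1.04 and 1.36. At DAYSLEEPER (AT3G42170), a plant protein derived from a transposase, the BLJ region on chromosome 3 (14321973 to 14323208) had 1.69 and 1.55 and its JKD partner 1.13 and 1.76. CUE1 (AT5G33320) carries phosphoenolpyruvate across the plastid envelope, and its BLJ region on chromosome 5 (12590002 to 12590255) had 2.25 and 1.43 against 1.27 and 2.10 for the JKD region over it. Other inner regions lay over pseudogenes, such as AT1G41803 (3.51 and 2.06 for BLJ, 1.21 and 2.41 for JKD) and AT4G06642 (3.25 and 1.52 for BLJ, 1.23 and 2.53 for JKD).

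Gene families could be drawn only from words in symbols and synonyms and were small. Of 32 pericentromeric kinase genes, 21 (65.6%) were overlapped by a BLJ region and 17 (53.1%) by a JKD region, against 85.5% and 81.5% of 551 on the arms. CRK36 (AT4G04490), a cysteine-rich receptor-like kinase, led with a BLJ pair of 2.27 and 1.79 and a JKD pair of 1.35 and 2.07. It was followed by RIPK (AT2G05940), a kinase of immune signalling, with a BLJ pair of 1.53 and 2.29 and a JKD pair of 1.18 and 2.18, and by AT4G04960. Of 12 cytochrome P450 genes, BLJ regions overlapped 3 and JKD regions 2, against 68.9% and 67.2% of 238 on the arms. CYP81D1 (AT5G36220) and BR6OX2 had regions of both factors over the gene and CYP705A13 a BLJ region alone. All 3 F-box genes found, VFB1, VFB3 and FBS3, were overlapped by both factors, against 78.6% of 28 on the arms for each factor. Among 12 genes taken by words for defensins or cysteine-rich proteins, 4 had a BLJ and 2 a JKD region, against 45 (BLJ) and 38 (JKD) of 125 on the arms. The leading ones, CRK36, CRK25 and CRK38, are receptor-like kinases. Of 4 ribosomal protein genes, RPL21C alone was overlapped, by both factors, against 87.7% for BLJ and 80.8% for JKD of 73 on the arms. Of 3 genes named as transcription factors, GTA2 had both, HSFB4, known as SCHIZORIZA, JKD alone and DPBF2 neither, against 89.7% (BLJ) and 83.2% (JKD) of 107 on the arms. The 1 disease resistance gene found had no region within 1000 bp, and MFDX1, the 1 gene with a mitochondrial name, had a BLJ region nearby. Among small RNA genes, regions of both factors overlapped the snRNA genes U1.14p and U4.10, and JKD regions alone overlapped U1.8, MIR5657 and MIR5024, and a BLJ region alone MIR5660.

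The stretch on chromosome 2 held 15 BLJ regions and 20 JKD regions. It also held 62 protein-coding genes, all with locus names of the AT2G07 series. Leaving the stretch out lowered the number of overlapped pericentromeric coding genes from 592 to 580 for BLJ and from 581 to 520 for JKD. Both lists were dense there in the second-listed value. Its median among BLJ regions was 3.58 in the stretch and 1.38 on the arms, and among JKD regions 3.54 in the stretch and 1.49 on the arms. First-listed medians were closer together, with 1.86 in the stretch and 1.60 on the arms for BLJ, and 1.03 and 1.10 for JKD. The form differed between the factors. BLJ regions were separate and of moderate width (median 1249 bp), while JKD regions had a median of 5953 bp and reached 38672 bp. Every one of the 15 BLJ regions overlapped a JKD region, and 13 of the 20 JKD regions overlapped a BLJ region. JKD regions delimited the stretch and covered nearly all of it, so the BLJ overlap was close to fixed in advance. It was 1.05 times the JKD cover. Agreement between replicates differed as well, since 11 of the 15 BLJ regions had an IDR at or below 0.05 and 4 of the 20 JKD regions did, with median IDRs of 0.0300 and 0.321.

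The BLJ list peaked in the stretch at 3407406 to 3408074, with densities of 4.87 and 9.05 over AT2G07713 and AT2G07714 and near AT2G07646. A BLJ region at 3399864 to 3400732 (2.30 and 3.82) lay near AT2G07642 and AT2G07711. The JKD list peaked at 3347399 to 3353683, with 1.47 and 6.73 and an IDR of 0.000632, where no BLJ region lay, over AT2G07599, AT2G07695, AT2G07696, AT2G07785, the transcribed pseudogene AT2G07813 and the non-coding gene AT2G05255. A second JKD region of low IDR (3315368 to 3322549, 0.000332) had 1.70 and 4.90. Density was also raised beside the stretch. In the 50 kb on either side, 6 BLJ regions had medians of 1.79 and 4.09, and 12 JKD regions had 0.980 and 3.10, with 9.27% and 45.1% cover. The place of mitochondrial DNA in these values was not tested, because no read or sequence data were used here.

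**Figure D5:**
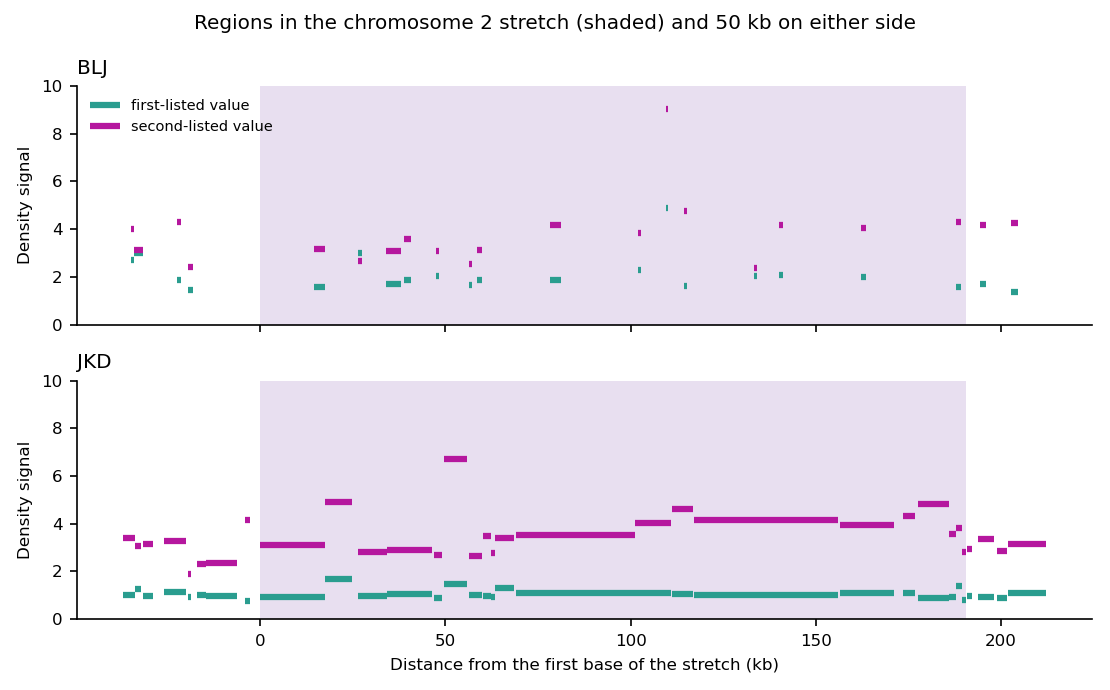
First-listed (green) and second-listed (magenta) density of each BLJ region (top) and JKD region (bottom) against distance in kb from the first base of the chromosome 2 stretch, shaded, with 50 kb on either side. Each bar spans its region, and in both lists the second-listed values lie mostly between 2 and 5 while the first-listed values of JKD lie between 0.803 and 1.70 inside the stretch.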

How the data were processed

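Per the labels' protocols, immunoprecipitated DNA was amplified linearly, tagged by transposon insertion and read from 1 end over 50 bp. CASAVA, Bowtie and build TAIR9 are named, per the submitters' processing notes. The sources used here do not give how peaks were called, how density was normalized or whether the control was used. Per the deposited sample sheets, both replicate 1 libraries and the control shared a flow cell, and both replicate 2 libraries another.

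The deposited density signal holds 2 values per region in 1 cell, and the deposited IDR lies between 0 and 1 and was treated as a q-value. Positions are 1-based. The score is the mean log2 of both values. Cover was counted by base, with chromosome ends set at the last region of either list. Genes came from an NCBI table of TAIR10.1 without strand, exons or sequence, used for names and neighbours. Its match to the regions was checked by shifting genes by up to 3000 bp in steps of 250 bp, and cover of coding genes stood out most at a shift of 0 on all chromosomes in both lists. The table holds 27444 protein-coding genes.

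Members, lists and limits were chosen with earlier results of these data known. Named genes are those at the 10 densest regions of each list outside the stretch, the 10 smallest rank sums, up to 3 per class or family, and 5 per list in the stretch. The family words were meant for product names, which the table does not hold, and were matched to symbols and synonyms. Planned promoter sequences were not used here. No test was run. The counting of overlaps and cover was tested on simulated data. Tools were numpy 2.4.6, scipy 1.17.1, pandas 2.3.3 and matplotlib 3.10.9 under Python 3.11.15.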

Additional observations from a re-analysis of the deposited data

How the results depend on the processing

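No paired analysis was possible because each factor had 1 list made from both replicates, and its density values carry no replicate number; for the same reason no replicate could be left out. The 10 results that compare the intervals with the arms were recomputed under those of 12 alternative settings that apply to each. Of the 72 values, 42 lay within a limit, 29 lay further away and 1 turned its direction. The limit was the counting interval of the reported value or, for density, the spread between both values. For density from either value alone, lying within the spread was nearly fixed in advance, because the spread came from those values. All 10 results kept their direction within their limits without the chromosome 2 stretch. The same held without the stretch and 50 kb on either side, a setting chosen after seeing the data. Leaving out the stretch kept 971 of 986 BLJ and 765 of 785 JKD members, so most of these values had little room to move. Cover, which the stretch did change for JKD, was not among the 10 results. Edges that lie 0.5 Mb further in or out change the members by construction. Narrowed intervals held 2.20% of BLJ and 1.83% of JKD regions, with differences (intervals minus arms, in percentage points) of -26.2 for BLJ sharing, 6.23 for the BLJ share at an IDR of 0.05, and -28.8 (BLJ) and -20.01 (JKD) for midpoints in coding genes. Widened intervals held 6.57% and 5.94%, with differences of -18.8 and -14.9 for sharing, -18.5 for BLJ midpoints in coding genes and 1.19 for the JKD share at an IDR of 0.05. Among regions with an IDR at or below 0.1, the JKD share in the intervals was 3.87%, the BLJ density difference 0.21 (log2) and the sharing differences -3.69 (BLJ) and -1.84 (JKD). At 0.05 the intervals held 5.33% of BLJ and 4.37% of JKD regions, the BLJ density difference was 0.39, sharing differed by -4.90 and -0.323 points, and midpoints in coding genes by -28.2 and -19.2 points. The BLJ share that passed an IDR limit of 0.1 differed by 0.104 points. Sharing differed by -15.7 (BLJ) and -13.8 (JKD) points inside coding genes, by -34.5 for BLJ outside them, and by -12.1 and -7.92 when 50% of both regions had to overlap. With the first-listed value alone the JKD density difference was -0.0050, the 1 reversal. The cause was not tested. Windows by coding content, gene length, symbol and neighbour classes, distance classes and the densest 1% were chosen after seeing the data. Read depth is unknown, so what depth limits could not be stated.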
